A study of Mus musculus with 8 samples.

Results

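The genes described here encode the proteins of the cytosolic ribosome of the mouse. They were chosen by name from the deposited expression table: protein-coding genes called Rpl or Rps followed by a number, with Rplp0, Rplp1, Rplp2 and Rpsa. The rule took 79 of the 20539 genes of the table, 48 of the large subunit and 31 of the small subunit, among 15566 protein-coding genes. RNA-seq was performed on articular cartilage from the knees of mice 7 days after transection of the anterior cruciate ligament (ACLT). Mice were treated with a placebo antibody (REGN1945) or with REGN647, an antibody that blocks growth differentiation factor 8 (GDF8, myostatin), a circulating inhibitor of muscle growth. Each limb state and antibody gave 2 libraries, pools A and B, so the 8 libraries fall into 4 groups, control and ACLT limbs under placebo and control and ACLT limbs under anti-GDF8. All animals of the 4 groups carried the injury in one limb and all received an antibody, because the control limbs were the uninjured limbs of operated mice. The mice were adults of both sexes that, per the methods of the study, were C57BL/6J or Col1-eGFP (a reporter of type I collagen expression). Which of these strains gave the cartilage is not given in the sources used here. A library is a pool of several limbs, so the spread between pools A and B is a spread between pools and not between single mice. One label field of the 4 control samples names quadricep while their tissue field names cartilage.

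The cytosolic ribosome translates messenger RNA into protein, and its small subunit reads the code while its large subunit joins the amino acids. Ribosomal protein genes are housekeeping genes that are usually expressed together, since each ribosome holds a single copy of nearly every protein. Most of their messenger RNAs start with a cytidine followed by a run of pyrimidines, the terminal oligopyrimidine (TOP) tract, through which their translation follows nutrient and growth factor signals. A few members have paralogs of narrower expression, such as Rpl3l, which is made in skeletal and heart muscle in place of Rpl3.

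The start sites show what the family shares that the naming rule did not use. RefSeq promoter sequences (build GRCm38.p6) were at hand for 59 of the 79 genes. From 15 bases before to 50 bases after an annotated start, a run of at least 8 C or T led by C, on the sense strand, was present in 44 of the 59 genes (74.6%), against 18.3% of all 32851 promoters of the same window. A C followed by at least 4 C or T exactly at the annotated first base was present in 13 genes (22%), against 2.51% of all promoters. The letters CCGGAAG, the core of the motif bound by ETS factors, were found on either strand of the 300-base promoter in 25 genes (42.4%), against 8.86% of all promoters. On the other strand CCGGAAG reads as CTTCCGG, so its pyrimidine part can overlap a C or T run. AAGATGGC, a motif of the factor YY1, was found on either strand in 5 genes (8.47%), against 2.75%, and TATAAA on the sense strand in 5 genes (8.47%), against 8.32%. These backgrounds count promoters, while the members were counted by gene. Over 26966 other genes the shares were 20.7% for the run of at least 8 and 2.97% for the C at the first base. They were 9.86% for CCGGAAG, 3.18% for AAGATGGC and 9.78% for TATAAA. The windows below are picked examples: members with a pyrimidine tract at the start, and Rpl22, Rpl39l and Rpl3l, whose values stood apart in the results. Whether a tract goes with the values was not tested. Each has 10 bases before and 20 bases from the annotated start on, so that base 11 is the annotated first base of the transcript, and capitals mark runs of C and T that begin with C and are at least 5 bases long.
Rps6 (chr4:86857348-86857377, minus strand): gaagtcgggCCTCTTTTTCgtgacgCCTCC
Rpl35 (chr2:39005112-39005141, minus strand): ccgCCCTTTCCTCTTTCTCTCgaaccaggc
Rpl15 (chr14:18270967-18270996, minus strand): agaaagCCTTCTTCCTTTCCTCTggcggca
Rps18 (chr17:33955646-33955675, minus strand): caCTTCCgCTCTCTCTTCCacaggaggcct
Rplp2 (chr7:141447641-141447670, plus strand): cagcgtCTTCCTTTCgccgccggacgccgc
Rpl22, first start (chr4:152324426-152324455, plus strand): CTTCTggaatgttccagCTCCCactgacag
Rpl22, second start (chr4:152325716-152325745, plus strand): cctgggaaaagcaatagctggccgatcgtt
Rpl39l (chr16:10170218-10170247, plus strand): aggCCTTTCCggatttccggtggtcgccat
Rpl3l, first start (chr17:24727816-24727845, plus strand): ttctagctctgtcatttgaCCTCTggtgcc
Rpl3l, second start (chr17:24732675-24732704, plus strand): caacagctacagtgccccaaatgtcctgaa
In the windows of Rps6, Rpl35, Rpl15, Rps18 and Rplp2 a pyrimidine run covers the annotated first base, while in those of Rpl22, Rpl39l and Rpl3l none does. Nor does one in the windows of Rpl19 and Rps27l, which are not shown. In the windows of Rpl39l and Rpl19, however, a run ends on base 10, directly before the annotated first base. The window of Rps27, also not shown, has a run over that base, and Rps27 rose under placebo. Rplp2, shown with a run, also stood apart in its values. Without Rpl3l, the median log2 fold change of placebo ACLT against placebo control was 0.58 in the 13 genes with a C and at least 4 C or T at the annotated first base and 0.69 in the 45 without. For the run of at least 8 bases in the wider window it was 0.69 in the 43 genes with it and 0.67 in the 15 without.

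By the smallest step of the deposited values, which are counts per 1000000 reads (CPM), the libraries held 16442117 to 28101708 reads. Skeletal muscle RNA differed between the groups. The 28 muscle fiber markers took 3.78% and 8.88% of the reads in the placebo control pools, 2.10% and 3.55% in the anti-GDF8 control pools, 0.0752% and 0.0409% in the placebo ACLT pools and 0.277% and 4.13% in anti-GDF8 ACLT pools A and B. All 28 were lower in placebo ACLT than in placebo control by the fitted log2 fold change, and 23 passed the test. Hemoglobin and other erythroid markers took 7.00% to 13.3% of the reads and neutrophil markers 2.35% to 3.89%. Macrophage markers took 0.0625% to 0.0725% of the reads in the 4 control pools and 0.107% to 0.170% in the 4 ACLT pools. Fibroblast markers took 0.357% to 1.37% in the control pools and 1.08% to 4.48% in the ACLT pools, and mitochondrially encoded genes 2.35% to 3.27% and 1.17% to 1.85%. Chondrocyte markers, 16 of 17 of which passed the filter on low values, took 0.484% and 0.521% of the reads in the placebo control pools, 0.905% and 0.901% in the placebo ACLT pools and 0.413% to 0.548% in the 4 anti-GDF8 pools. Col2a1, the type II collagen of cartilage, ran from 168 to 1654 CPM, and Acan, aggrecan, from 28.5 to 88.0 CPM. In these bulk samples, more cells of a type and more RNA per cell cannot be told apart.

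Together the 79 genes took 0.696% to 1.10% of the reads of a library. Their summed CPM was 8198 and 6965 in the placebo control pools, 11042 and 10932 in the placebo ACLT pools, 8397 and 7968 in the anti-GDF8 control pools and 10235 and 9655 in the anti-GDF8 ACLT pools. All 4 ACLT pools lay above all 4 control pools, and both placebo ACLT pools lay above both anti-GDF8 ACLT pools. By group means the sum was 1.45-fold higher in ACLT than in control limbs under placebo and 1.22-fold higher under anti-GDF8, while anti-GDF8 ACLT stood at 0.905 of placebo ACLT. The ratio of large to small subunit CPM stayed between 1.45 and 1.55 in the 8 libraries. Ranges by limb overlapped, with 1.45 to 1.5 in the control pools and 1.45 to 1.55 in the ACLT pools.

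**Figure D1:**
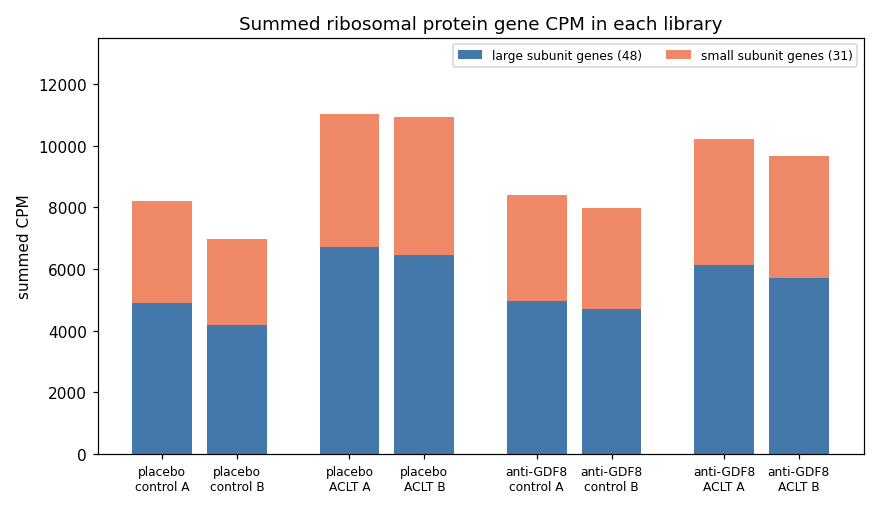
Summed CPM of the 48 large subunit genes (blue) and the 31 small subunit genes (orange) in each of the 8 libraries, stacked from 0. The 4 ACLT pools reach 9655 to 11042 and the 4 control pools 6965 to 8397.

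Levels between genes were compared as CPM per kilobase of the annotated transcript, averaged over the 8 libraries. The median was 119 CPM per kilobase over the 79 genes, 111 for the large subunit and 134 for the small. The highest were Rpl13 at 441, Rpl41, which encodes the smallest ribosomal protein, at 342, and Rplp0, which anchors the P stalk, at 303. The lowest were Rpl39l at 1.07, Rps15a at 8.21 and Rpl12, a protein at the base of the stalk, at 11.3. The value of Rps15a rests on an annotated transcript of 5130 bases, the longest of the family, whose median was 780 bases.

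In placebo-treated animals the question was how the cartilage of the injured limb differed from that of the uninjured limb 1 week after the injury. The ribosomal protein genes were higher in the ACLT limbs almost without exception. Of the 79 genes, 78 had a positive log2 fold change and 50 rose (adjusted p under 0.05 by limma over all tested genes). The share of all 17401 tested genes called higher was 11.6%. One gene, the muscle paralog Rpl3l, fell, where 4.03% of all tested genes were called lower. The median log2 fold change of the 79 was 0.64, which is 1.56-fold, beside 0.17 for all tested genes. In the same 78 genes both ACLT pools lay above both control pools, which held for 38.8% of all tested genes. The large subunit had 33 rises among 48 genes and a median of 0.65, and the small subunit had 17 among 31 and a median of 0.60. Of 8702 other protein-coding genes with a mean between 14.0 and 411 CPM, the range of the family other than Rpl39l, 13.6% were called higher and the median was 0.06. The count, 51 calls in either direction, depended on single pools. It was lower without either placebo ACLT pool, and without placebo control pool B, the pool of highest muscle RNA. The number of calls over all tested genes was lower in these fits too. The median stayed between 0.49 and 0.80 with any 1 library left out. Macrophage markers moved with the same comparison (10 of 10 higher, 9 called), as did fibroblast markers (15 of 15 higher, 10 called). The summed level of chondrocyte markers was higher, but 10 of 16 tested were lower and 6 higher, with a median of -0.40. Mitochondrially encoded genes were lower, with mean shares of the reads of 3.15% in control and 1.27% in ACLT limbs. The part of these differences in the result was not tested. With the mean of the muscle markers as a covariate no member was called and the median was 0.32. Only 1 of all 17401 tested genes was called in that fit, against 2712 in the reported one. With muscle, erythroid, neutrophil and mitochondrial genes taken out of the totals 38 members rose, as did 1591 of all tested genes. Under TMM scaling (trimmed means of log2 ratios) 31 members rose and 75 were positive, and higher calls made up 49.0% of all calls over the tested genes in place of 74.2%.

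**Figure D2:**
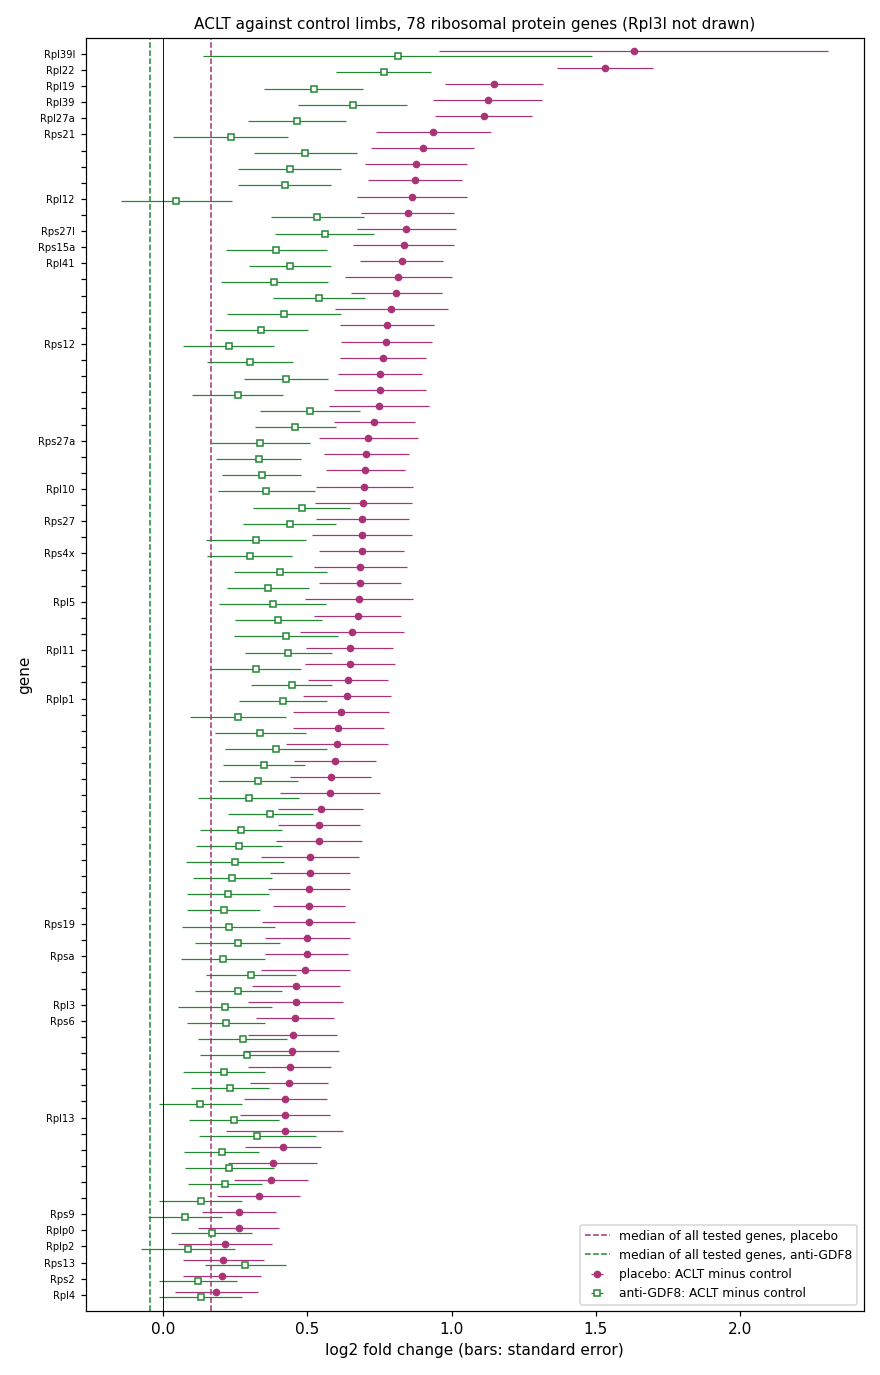
Log2 fold change of ACLT against control limbs for 78 ribosomal protein genes, ordered by the placebo value and labelled where chosen by the naming rule, with filled circles for placebo and open squares for anti-GDF8, bars for standard errors and dashed lines for the medians of all tested genes. Under placebo the points run from 0.18 (Rpl4) to 1.63 (Rpl39l), and 77 of the 78 anti-GDF8 points lie to the left of the placebo point of the same gene.

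Rpl22, which encodes a protein on the outer face of the large subunit that binds RNA and is not needed for translation as such, had the largest rise among the genes that passed the test. Its values were 29.8 and 29.7 CPM in control and 94.1 and 78.8 in ACLT limbs under placebo, and 31.6 and 39.2 in control and 62.7 and 56.9 in ACLT limbs under anti-GDF8. All ACLT pools lay above all control pools, and both placebo ACLT pools above both anti-GDF8 ACLT pools. The log2 fold change under placebo was 1.53 ± 0.17 (SE, n = 2 pools against 2; limma adjusted p = 0.00143).

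Rpl19, a protein that reaches from the large to the small subunit in a bridge between them, had 165 and 125 CPM in control and 342 and 296 in ACLT limbs under placebo, and 155 and 150 in control and 235 and 204 in ACLT limbs under anti-GDF8. Both placebo ACLT pools stood above every other library. The placebo log2 fold change was 1.15 ± 0.17 (adjusted p = 0.00416 by limma). Rpl27a, a large subunit protein near the tRNA sites, had 34.8 and 30.5 CPM in control and 78.8 and 62.9 in ACLT limbs under placebo, and 37.0 and 31.9 in control and 48.8 and 45.9 in ACLT limbs under anti-GDF8. The order of the groups was that of Rpl19, and the placebo log2 fold change was 1.11 ± 0.17 (adjusted p = 0.00456). Rpl39, a very short protein that lines the exit tunnel, had 22.3 and 18.0 CPM in control and 41.9 and 45.6 in ACLT limbs under placebo, and 17.8 and 21.3 in control and 33.9 and 27.8 in ACLT limbs under anti-GDF8. It too separated ACLT from control under both antibodies, with a placebo log2 fold change of 1.12 ± 0.19 (adjusted p = 0.00676). Rpl22, Rpl19, Rpl27a and Rpl39 were also the 4 genes called higher when each library was centred on the median of the family, that is, relative to the other members.

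In the P stalk, which recruits the elongation factors, Rplp1 alone passed the test under placebo, and Rplp0 and Rplp2 were also higher. Rplp0, its base, had 380 and 334 CPM in placebo control and 426 and 429 in placebo ACLT, and its log2 fold change of 0.26 ± 0.14 missed the threshold (adjusted p = 0.241). Rplp1 rose, from 71.9 and 60.2 CPM to 104 and 100, by 0.64 ± 0.15 on the log2 scale (adjusted p = 0.0251). Rplp2, the partner of Rplp1 in the stalk, had 64.8 and 85.7 CPM in placebo control and 86.4 and 86.5 in placebo ACLT. Placebo control pool B thus reached nearly the level of the ACLT pools, and the log2 fold change was 0.21 ± 0.16 (adjusted p = 0.410). The differences among the 3 stalk genes were not tested.

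Rpl5 and Rpl11, which travel with 5S rRNA in a particle that also binds the p53 ubiquitin ligase Mdm2, both rose. Rpl5 went from 19.3 and 17.8 CPM to 25.6 and 34.5, a log2 fold change of 0.68 ± 0.19 (adjusted p = 0.0412). Rpl11 went from 58.9 and 47.2 CPM to 85.0 and 80.3, a log2 fold change of 0.65 ± 0.15 (adjusted p = 0.0226). In both genes the ACLT pools lay above all control pools, those of anti-GDF8 included.

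In the small subunit Rps21 rose by 0.94 ± 0.20 on the log2 scale under placebo (adjusted p = 0.0159). Rps21, a short protein of the platform side of the subunit, had 14.1 and 11.6 CPM in control and 25.8 and 23.4 in ACLT limbs under placebo, and 15.3 and 12.4 in control and 15.7 and 16.7 in ACLT limbs under anti-GDF8. The anti-GDF8 ACLT pools thus stood just above the control pools and well below placebo ACLT. Rps27a, made as a fusion with ubiquitin, rose from 104 and 77.2 CPM to 145 and 149 (log2 fold change 0.71 ± 0.17, adjusted p = 0.0259). Rps6, the substrate of the S6 kinases, had 234 and 202 CPM in placebo control and 294 and 302 in placebo ACLT, and its log2 fold change of 0.46 ± 0.14 stood just short of the threshold (adjusted p = 0.0538). Rps19, the gene most often mutated in Diamond-Blackfan anemia, had 166 and 123 CPM and 200 and 206 CPM in the same groups (0.50 ± 0.16, adjusted p = 0.0677). Rpsa, also known as the laminin receptor, had 269 and 232 CPM and 341 and 364 CPM (0.50 ± 0.14, adjusted p = 0.05, just over the threshold before rounding). In these 3 genes too the pools of the 2 limbs did not overlap.

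The lowest log2 fold changes among the 78 higher genes were those of Rpl4 (0.18 ± 0.14), Rps2 (0.20 ± 0.14) and Rps13 (0.21 ± 0.14), none of which passed the test. Rpl4, whose loop narrows the exit tunnel, had 372 and 336 CPM in placebo control and 382 and 423 in placebo ACLT. Rps2, near the messenger RNA entry, had 243 and 261 CPM and 280 and 301 CPM. The more highly expressed members changed less: the 20 of highest level, from 178 to 441 CPM per kilobase, had a median placebo log2 fold change of 0.48 and 7 rises, while the 20 of lowest level, up to 76.9 CPM per kilobase, had a median of 0.77 and 15 rises. Across the 78 genes without Rpl3l, Pearson's r between the log2 level per kilobase and the placebo log2 fold change was -0.55, and Spearman's rho was -0.40. The genes share the same 8 libraries and are not independent, and the level enters the same values as the change. With the length of the transcript, r was -0.06.

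**Figure D3:**
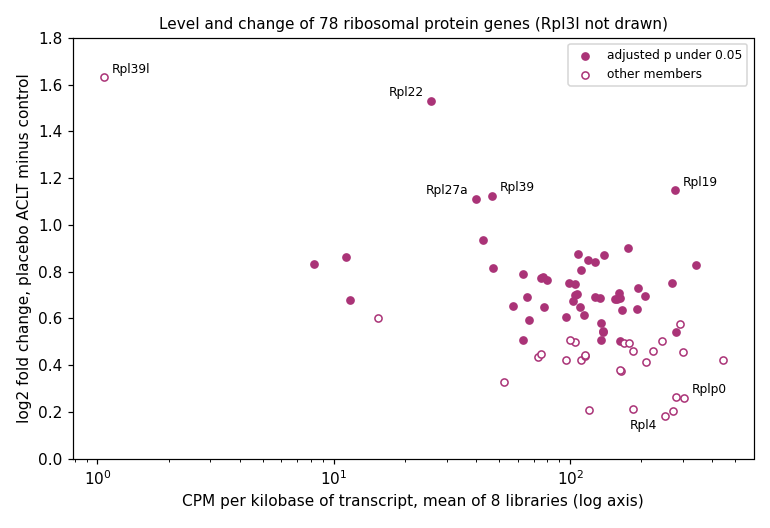
Placebo log2 fold change (ACLT minus control) of 78 ribosomal protein genes against their level in CPM per kilobase of transcript, mean of 8 libraries, on a log axis, with filled points for genes of adjusted p under 0.05. Rpl22 stands at 1.53, and many genes of high level, such as Rplp0 at 0.26, lie low in the plot, with Rpl19 at 1.15 an exception.

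Rpl3l went the other way and followed muscle RNA. It had 44.6 and 102 CPM in control and 1.99 and 0.817 in ACLT limbs under placebo, and 26.5 and 50.4 in control and 3.69 and 53.5 in ACLT limbs under anti-GDF8 (pools A and B). The last pool was as high as the control pools and the other ACLT pools were far below, down to 21 reads in placebo ACLT pool B. Under placebo the log2 fold change was -5.66 ± 1.04 (limma adjusted p = 0.00960), and with the muscle markers as a covariate it was 0.06 and did not pass. Only 1 of all 17401 tested genes was called in that fit, so the missed threshold there is not particular to Rpl3l. The summed muscle marker CPM over the same libraries ran from 409 in placebo ACLT pool B to 88807 in placebo control pool B, and for each 1000 CPM of muscle markers Rpl3l had 1.15 to 2.65 CPM. Over the 8 libraries Pearson's r between the log2 values was 0.996 and Spearman's rho 0.976, as a description of libraries in which muscle RNA also tracks the groups. Rpl3, the general gene, had 273 and 222 CPM in control and 342 and 335 in ACLT limbs under placebo, and 301 and 281 in control and 374 and 305 in ACLT limbs under anti-GDF8, and its placebo log2 fold change of 0.46 ± 0.16 missed the threshold (adjusted p = 0.0931).

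**Figure D4:**
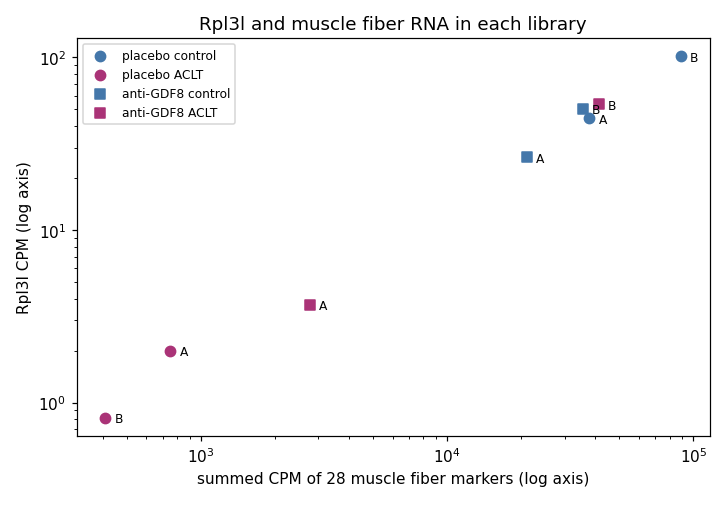
Rpl3l CPM against the summed CPM of 28 muscle fiber markers in each library, both on log axes, with circles for placebo, squares for anti-GDF8, blue for control and purple for ACLT limbs. Anti-GDF8 ACLT pool B (53.5 CPM) lies among the control pools, away from anti-GDF8 ACLT pool A (3.69 CPM).

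Rpl39l, known from the testis, was barely expressed, with 8 and 17 reads in control and 35 and 39 in ACLT limbs under placebo, and 2 and 9 in control and 12 and 10 in ACLT limbs under anti-GDF8. Its placebo log2 fold change of 1.63 ± 0.67 was the highest of the family and did not pass the test (adjusted p = 0.138). Rps27l, a p53-responsive copy of Rps27, rose under placebo from 59.6 and 42.8 CPM to 88.2 and 93.0 (0.84 ± 0.17, adjusted p = 0.0139), and Rps27 from 39.1 and 35.6 to 58.5 and 62.0 (0.69 ± 0.16, adjusted p = 0.0233). Rpl10, the last protein to join the large subunit in the cytoplasm, rose by 0.70 ± 0.17 on the log2 scale (adjusted p = 0.0258), and the X-linked Rps4x by 0.69 ± 0.15 (adjusted p = 0.0165). The autosomal copy Rps4l is classed as a pseudogene in the table, so it is not a member, and Rpl10l was not analysed here.

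In anti-GDF8-treated animals the same comparison gave smaller values. No member passed the test, where 0.598% of all tested genes were called higher and 0.0115% lower. The smallest adjusted p was 0.104, that of Rpl22, and 27 of the 79 genes (34.2%) had an unadjusted p under 0.05, against 10.1% of all tested genes. The log2 fold change was positive in 78 of 79 genes, with a median of 0.32, beside -0.04 for all tested genes. Both ACLT pools lay above both control pools in 74 members, 43 of the large and all 31 of the small subunit, against 20.2% of all tested genes. The exceptions were Rpl12, Rpl28, Rpl39l, Rpl3l and Rplp2. The 3 highest log2 fold changes were those of Rpl39l (0.81 ± 0.67), Rpl22 (0.76 ± 0.17, 95% interval 0.39 to 1.14) and Rpl39 (0.66 ± 0.19). The 3 lowest were those of Rpl3l (-1.37 ± 1.04), Rpl12 (0.05 ± 0.19) and Rps9, a small subunit protein at the messenger RNA entry (0.08 ± 0.13). Under anti-GDF8, Rpl12 had 12.8 and 13.3 CPM in the control limbs and 12.9 and 14.0 in the ACLT limbs, but 9.97 and 10.9 in placebo control and 17.5 and 20.7 in placebo ACLT. Its ACLT and control pools thus overlapped under anti-GDF8 and stood apart under placebo.

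The direct comparison of anti-GDF8 ACLT with placebo ACLT asked how the antibody altered the injured limb. No gene of any kind passed the test here (0% called higher and 0% lower). That outcome changed when anti-GDF8 ACLT pool A was left out, which left the group with only pool B, rich in muscle RNA. The members' median was then -0.24, and -0.15 without pool B. It also changed without placebo ACLT pool B, and with a replicate block by pool letter, where 1 gene, not a member, was called. With all libraries the smallest adjusted p of a member was 0.165. An unadjusted p under 0.05 was reached by 10 members (12.7%), against 17.3% of all tested genes. The median log2 fold change of the members was -0.20, beside -0.11 for all tested genes, with 71 members lower and 8 higher. Both anti-GDF8 pools lay below both placebo pools in 59 members (35.6% of all tested genes) and above them in 3, Rpl3l, Rplp0 and Rps2 (16.3% of all tested genes). The lowest log2 fold changes were those of Rpl39l (-1.70 ± 0.67), Rps21 (-0.60 ± 0.20, 95% interval -1.05 to -0.15) and Rpl27a (-0.57 ± 0.17, interval -0.96 to -0.19). The highest was that of Rpl3l (3.41 ± 1.04, adjusted p = 0.171), followed by Rps2 (0.10 ± 0.14) and Rplp0 (0.09 ± 0.14). Under TMM scaling the median of the members was -0.07. Muscle markers took 0.277% and 4.13% of the reads in these anti-GDF8 pools and 0.0752% and 0.0409% in the placebo pools, fibroblast markers 1.08% to 1.36% and 2.51% to 4.48%, and macrophage markers 0.107% to 0.109% and 0.149% to 0.170%. Chondrocyte markers took 0.413% to 0.548% and 0.901% to 0.905%, and 16 of 16 tested were lower under anti-GDF8, as were 12 of 12 B cell markers, while 14 of 14 cell cycle markers were higher. Of the erythroid markers 11 of 11 tested were higher too, with a median of 0.73, and of the neutrophil markers 11 of 13. The part of these differences in the members' values was not tested.

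In the uninjured limbs no gene passed the test between anti-GDF8 control and placebo control (0% called higher and 0% lower), the smallest adjusted p of a member was 0.891, and no member had an unadjusted p under 0.05, against 4.55% of all tested genes. The median was 0.10 for the members and 0.09 for all tested genes, and the members' median was -0.0538 without placebo control pool B and 0.23 without placebo control pool A. The pools did not overlap in 20 members that were higher under anti-GDF8 (23.9% of all tested genes) and in 1 that was lower, Rps27 (11% of all tested genes). The highest log2 fold changes were those of Rpl12 (0.32 ± 0.19), Rps12, a small subunit protein of the beak (0.32 ± 0.16), and Rpsa (0.28 ± 0.14). The lowest were those of Rpl3l (-0.88 ± 1.04), Rpl39l (-0.88 ± 0.67) and Rps27 (-0.18 ± 0.16). As in the injured limbs, 12 of 12 B cell markers were lower under anti-GDF8, and 14 of 14 cell cycle markers and 11 of 11 erythroid markers higher. Neutrophil markers were higher in 13 of 13 and muscle fiber markers lower in 24 of 28. The part of these differences was not tested. Of 16 chondrocyte markers tested, 9 were lower and 7 higher in the uninjured limbs. The spread between the placebo control pools was the widest of the 4 groups, with a median coefficient of variation of 13.7% over the members without Rpl3l and Rpl39l, against 4.02% to 5.10% in the other groups.

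Whether the change with injury differed between the antibodies was tested by the interaction of drug and injury. No gene passed (0% called higher and 0% lower). That outcome changed when anti-GDF8 ACLT pool A was left out, which left the group with only pool B, rich in muscle RNA. The members' median was then -0.32, and -0.24 without pool B. With all libraries the smallest adjusted p of a member was 0.449. An unadjusted p under 0.05 was reached by 7 members (8.86%), against 10.3% of all tested genes. The interaction was negative in 77 of 79 members, with a median of -0.28, and it was positive in 32.5% of all tested genes, whose median was -0.21. The members' median was -0.0541 under TMM scaling, with 24 members positive, and ran from -0.42 (without placebo control pool A) to -0.15 (without placebo control pool B) with 1 library left out. The lowest values were those of Rpl39l (-0.82 ± 0.95), Rpl12 (-0.82 ± 0.27, 95% interval -1.43 to -0.20) and Rpl22 (-0.77 ± 0.23, interval -1.30 to -0.24). The only positive values were those of Rpl3l (4.29 ± 1.48) and Rps13, a small subunit protein that bridges to the large subunit (0.08 ± 0.20). The smaller rise of the family under anti-GDF8 is thus not shown to differ from that under placebo.

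Over both antibodies, the 4 ACLT libraries were compared with the 4 control libraries. In this comparison 55 members rose and 1, Rpl3l, fell, against 10.8% and 3.91% of all tested genes called in those directions. The median was 0.49, beside 0.05 for all tested genes. All 4 ACLT pools lay above all 4 control pools in 71 members, 41 of the large and 30 of the small subunit, against 11.7% of all tested genes, and in no member was the reverse seen, which held for 3.51% of all tested genes. The 8 members with overlap were Rpl12, Rpl28, Rpl29, Rpl39l, Rpl3l, Rpl4, Rplp2 and Rps2. Rpl22 again led the genes that passed (1.15 ± 0.12, adjusted p = 6.86e-04), before Rpl39 (0.89 ± 0.13) and Rpl19 (0.83 ± 0.12). With 1 library left out the median ran from 0.42 to 0.56. The number of members called depended on single pools and was lowest without placebo ACLT pool A, as was the number over all tested genes. With all libraries, 19 members were called without the intensity trend of the variance and 0 with the muscle markers as a covariate. In these fits 1503 and 131 of all tested genes were called, against 2565 in the reported one.

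Of 10 tested ribosomal proteins and partners that the naming rule leaves out, all 10 were higher in placebo ACLT than in placebo control, with a median log2 fold change of 0.59, and 3 rose, where 11.6% of all tested genes were called higher. These were Fau (0.58 ± 0.13), the fusion gene of Rps30, Rpl22l1 (0.86 ± 0.21), the paralog of Rpl22, and Rpl36al (0.59 ± 0.15). Rpl22l1 had 15.6 and 11.9 CPM in placebo control and 24.8 and 24.8 in placebo ACLT. It rose beside Rpl22 in these limbs.

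Other lists of the translation machinery are given beside the same background under placebo, 11.6% of all tested genes called higher, 4.03% called lower and a median of 0.17; differences between lists were not tested. Of 37 translation initiation factors 2 rose, and their median was 0.05. Eif5b, which joins the subunits, rose from 65.9 and 63.7 CPM to 186 and 155 (1.39 ± 0.17, adjusted p = 0.00221), and Eif3d, a cap-binding subunit of Eif3, by 0.57 ± 0.15. Of 10 elongation and release factors 2 rose and 1 fell, with a median of 0.06. Eef1b2, the exchange factor of elongation factor 1, rose by 0.68 ± 0.14. The gene that fell, Eef1a2, is the muscle and neuron form of elongation factor 1A, and it had 14.4 and 47.3 CPM in control and 0.499 and 0.739 in ACLT limbs under placebo, and 10.8 and 18.4 in control and 0.904 and 17.3 in ACLT limbs under anti-GDF8. Like Rpl3l it was high in the pools with muscle RNA.

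Of 56 ribosome biogenesis factors tested 9 rose and none fell under placebo, beside the 11.6% and 4.03% of all tested genes, with a median of 0.22. Utp18, of the small subunit processome, rose from 49.6 and 36.2 CPM to 232 and 162 (2.19 ± 0.27, adjusted p = 0.00221), and Nop58, of the box C/D snoRNPs, from 57.7 and 56.0 to 206 and 173 (1.73 ± 0.22, adjusted p = 0.00239). Both of these exceeded every ribosomal protein gene in log2 fold change. Of 15 genes of RNA polymerase I and its factors 2 rose, Polr1c (0.95 ± 0.19) and Ubtf (0.55 ± 0.16), with a list median of 0.35. Of 13 genes of signal recognition, the translocon and selenocysteine insertion 3 rose, with a median of 0.38, led by the translocon subunit Sec61b (0.79 ± 0.16) and the signal recognition particle protein Srp19 (0.73 ± 0.15). No gene of these lists passed the test under anti-GDF8.

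Of the 78 nuclear genes for mitochondrial ribosomal proteins 41 were higher and 37 lower under placebo, 5 rose, beside 11.6% of all tested genes, and the median was 0.05. Under anti-GDF8 62 were higher, none passed, and the median was 0.11, with both ACLT pools above both control pools in 34 genes (20.2% of all tested genes) and below them in 1 (23.8%). Mrpl52 (0.77 ± 0.18) and Mrpl27 (0.68 ± 0.17) had the smallest adjusted p under placebo. Of 20 regulators of TOP translation and S6 kinases none passed the test under placebo, with 12 lower, 8 higher and a median of -0.09. Cnbp, a protein that binds TOP messenger RNAs, had 726 and 747 CPM in placebo control and 1071 and 1048 in placebo ACLT (0.52 ± 0.19, adjusted p = 0.0916). Pabpc1, the poly(A) binding protein whose own messenger RNA has a TOP tract, had 369 and 478 CPM and 386 and 428 CPM (-0.05 ± 0.22).

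**Figure D5:**
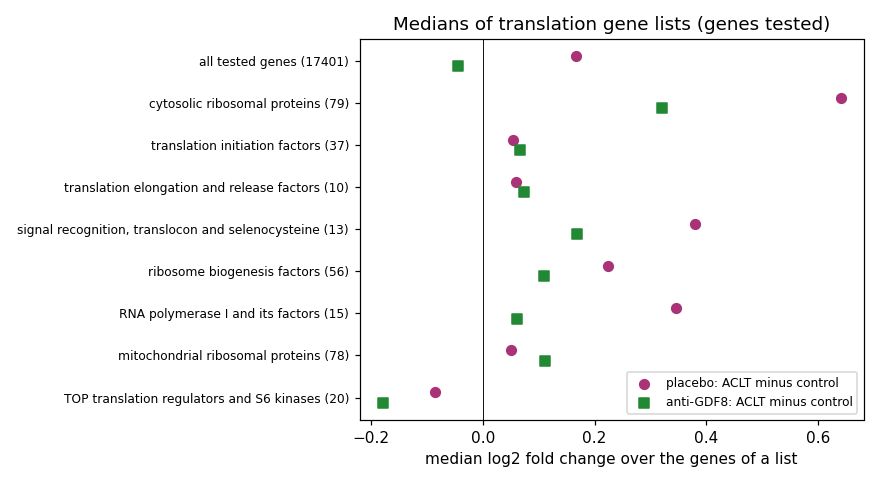
Median log2 fold change of ACLT against control limbs over the genes of each list, with circles for placebo and squares for anti-GDF8 and the number of genes tested in parentheses. Among the translation lists drawn, the cytosolic ribosomal proteins lie farthest to the right, at 0.64 under placebo and 0.32 under anti-GDF8.

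Among 11975 other genes of a mean level of 5 CPM or more, those whose log2 values over the 8 libraries were most like the members' median were Cox8a, a subunit of cytochrome c oxidase (Pearson's r = 0.995), Srp19 (0.992), Emp3 (0.991), Fam177a (0.990) and Mesd, a chaperone of Wnt co-receptors (0.989). Within the family r with that median was 0.727 or more in 75 of 79 genes, and lower in Rpl39l (0.621), Rps2 (0.562), Rplp2 (0.381) and Rpl3l (-0.861).

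Ribosomal protein genes have many near-identical processed copies in the genome, with which the counting could share reads. Only 7 members, Rpl3l, Rpl22, Rpl39, Rpl39l, Rps15, Rps21 and Rps27l, had whole numbers of reads (within 0.05 of a read) in all 8 libraries, while 24 had them in none. This limit is hard to meet at high counts, where small errors of rounding and depth grow. In placebo control pool B, Rpl3l came to 2864.04 reads. Members of higher level can thus miss the limit without shared reads. Between 10 and 100 CPM, 19.4% to 34.7% of the members' values in a library were whole, against 75.7% to 79.5% of those of other protein-coding genes. How reads that match several loci were counted is not given in the sources used here, so how far shared reads enter the members' levels is uncertain. Of these 7 members, 5 rose under placebo, by 0.58 (Rps15) to 1.53 (Rpl22) on the log2 scale, Rpl3l fell and Rpl39l did not pass the test. The 110 rows of ribosomal copies in the table summed to 75 to 165 CPM in the control pools and 120 to 216 CPM in the ACLT pools, 1.08% to 2.07% of the members' sum. Of the 47 copy rows tested, 45 were higher in placebo ACLT than in placebo control, with a median log2 fold change of 1.08. Under anti-GDF8 32 of them were higher, with a median of 0.27. Whether shared reads enter the members' changes was not tested.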

How the data were processed

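The authors deposited a table of CPM values (counts per 1000000 reads), each library summing to 1000000. Tools named by the submitters in their processing notes are STAR 2.7.3a, DESeq2 and Partek, and the builds given there are mm10 and mm39, with no role stated for any. Depth was read from the smallest step of the CPM values (16442117 to 28101708 reads). Since 69.7% to 75.5% of low values were whole reads, counts were not rebuilt. Log2(reads at the median depth of 20087810 reads + 1) was fitted with limma 3.58.1 (R 4.3.3) in 1 model of 4 group means over 8 libraries with an intensity trend, for the 17401 genes whose mean reached 10 reads at that depth, and p-values were adjusted by Benjamini-Hochberg over all of them at a threshold of 0.05. All 79 members were tested. Fold changes are on this scale, and intervals are 95%. The fit has 4 residual degrees of freedom, to which the variance shared across genes adds 4.74. A p-value thus weighs a change against the spread between pools, in part that of other genes. Transcript lengths are those of GENCODE M21 (the median over principal coding transcripts). Named members were the paralogs, members of separate role, the 3 highest and 3 lowest of each comparison and of the level per kilobase, and every call where under 10 were made. Of other lists, up to 2 calls of smallest adjusted p were named, or the 2 of highest mean, and 5 genes of like pattern. Rps15, Rpl28 and Rpl29 were named after their values were seen. The members and lists were chosen with earlier results of these data known. The test was checked on simulated data. Alternatives in pseudocount, filter, scaling, model, pairing and libraries are given in the closing section.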

Additional observations from a re-analysis of the deposited data

How the results depend on the processing

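For placebo ACLT against placebo control, the 51 calls (50 higher) became 32 under TMM scaling, 32 with only the libraries compared, 17 without the intensity trend, 5 with each library centred on the members and 0 with the muscle marker covariate, and 4 to 66 with 1 library left out. For ACLT against control over both antibodies, the 56 calls became 19 without the trend, 7 when centred and 0 with the covariate, and 17 to 69 with 1 library left out. For the other 4 comparisons no setting gave more than 1 call, which was Rpl3l: lower in anti-GDF8 ACLT against anti-GDF8 control without anti-GDF8 ACLT pool B (0 to 1), and higher in anti-GDF8 ACLT against placebo ACLT (0 to 1) and in the interaction (0 to 1) without anti-GDF8 ACLT pool A, where 462 and 305 of all tested genes were called in place of 0. Each of these Rpl3l calls came from a fit that left the anti-GDF8 ACLT group with 1 pool. Of all tested genes, 2712 were called in the reported placebo fit, 3050 under TMM scaling, 2504 with only the libraries compared and 1675 without the trend. The number was 5914 when centred and 1 with the covariate. Over both antibodies it was 2565, and 1503 without the trend, 7268 when centred and 131 with the covariate. TMM scaling moved the median of all tested genes under placebo by -0.21, and 49.0% of all calls were then higher in place of 74.2%, with 75 members positive. The members' placebo median less that of all tested genes was 0.47 in the reported fit and 0.22 with the muscle covariate.

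The SD of the members' median between pools was 0.087, and the medians that moved by more than this with the scaling or the covariate were as follows. Under TMM they were 0.43 for placebo injury, -0.0691 for the drug in ACLT limbs, 0.00960 in control limbs, -0.0541 for the interaction and 0.39 over both antibodies. Without marker and mitochondrial genes in the totals they were 0.50 for placebo injury, -0.0979 for the drug in ACLT limbs and -0.139 for the interaction. When centred on the members they were, by construction, near 0, at 0.0893 for placebo injury, 0.0487 for anti-GDF8 injury, -0.0216 and 0.000218 for the drug in ACLT and control limbs, 0.00295 for the interaction and 0.0819 over both antibodies. With the muscle covariate they were 0.32, 0.23 (anti-GDF8 injury), -0.0315 (drug in ACLT limbs), -0.0931 (interaction) and 0.27 (both antibodies). With 1 library left out the medians ran from 0.49 to 0.80 (placebo), 0.26 to 0.37 (anti-GDF8), -0.24 to -0.15 (drug in ACLT limbs), -0.0538 to 0.23 (drug in control limbs), -0.42 to -0.15 (interaction) and 0.42 to 0.56 (both). A group left with 1 pool was assumed to vary like the others. The cause was not tested.

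Among named members, called values turned sign 3 times: Rpl3l under the muscle covariate (0.0629 under placebo and 0.12 over both antibodies) and Rps6 over both antibodies when centred on the members (-0.0753). The differences between pools B and A correlated between groups with r from 0.003 to 0.30 over all genes. Over the members r ran from -0.68 to 0.67. Each group has only pools A and B, so these values cannot decide whether pools of the same letter came from the same mice. A replicate block by letter gave 54 placebo calls and 56 over both antibodies, a block within treatment 51 and 55, and a block by title number 46 and 49.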
